A study of Homo sapiens with 6 samples.

Results

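The 5p arms of the late-numbered miRNAs miR-6726 to miR-6895 were examined in HuCCT1 cells (HuccT1 in the labels), an established human cholangiocarcinoma (CCA) cell line. Every human probe named as a 5p arm with a number from miR-6726 to miR-6895, without a letter after it, was taken whatever its signal. This gave 163 of the 2555 human miRNA probes on the array. The 164 probes for the 3p arms of the same numbers served as contrast, and the remaining 2228 human probes are called the other miRNAs. Arms with a letter after the number, such as miR-6769b-5p and miR-6780b-5p, are among the other miRNAs. Total RNA came from a control group without TGF-β (0 ng/ml) and from a group treated with 10 ng/ml TGF-β, a cytokine that induces epithelial-mesenchymal transition (EMT) in epithelial cells, each for 72 h. Each group had 3 arrays of 1 colour (Cy5), and both groups shared the cell line, the RNA extraction kit and the array type. The labels do not say whether the arrays of a group came from separate cultures, so that p-values measure the spread between these arrays, which may be technical, and results from 1 line hold for that line.

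A miRNA is cut from a folded precursor, the hairpin, whose 2 strands give a 5p arm and a 3p arm, named for the end of the hairpin they lie toward. In the canonical pathway the nuclear enzyme Drosha cuts the hairpin out of a longer transcript. A mirtron takes another way: a short intron is spliced out, its lariat is opened, and the intron itself folds into the hairpin that Dicer cuts, without Drosha. Introns end in AG at their 3′ splice site, and their pyrimidine-rich tract lies before it, so that the 3p arm of a mirtron is usually rich in C and U and the 5p arm pairing with it is rich in G. The seed, bases 2 to 8 of the mature miRNA, is the stretch that chiefly pairs with target mRNAs.

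Mature sequences from RefSeq (GRCh38.p14) were found for 139 of the 163 5p arms and hairpins for 131 of them. The sequences of the brightest 5p arms are shown first, since the detection and base composition described here turn on them, with bases 2 to 8 in capitals.
miR-6822-5p: cAGGGAACcaguuggggcuu
miR-6768-5p: cACACAGGaaaagcggggcccug
miR-6869-5p: gUGAGUAGuggcgcgcggcggc
miR-6786-5p: gCGGUGGGgccggaggggcgu
miR-6743-5p: aAGGGGCAgggacggguggccc
miR-6729-5p: uGGGCGAGggcggcugagcggc
miR-6727-5p: cUCGGGGCaggcggcugggagcg
miR-6784-5p: gCCGGGGCuuugggugaggg
The next 2 are the 5p arms whose control and TGF-β arrays did not overlap, again with the seed in capitals.
miR-6808-5p: cAGGCAGGgaggugggaccaug
miR-6826-5p: uCAAUAGGaaagaggugggaccu
The 3p arms of these hairpins are shown with their last 2 bases in capitals, because an intron ends in AG. The first 5 stop short of the end of their hairpin and do not end in AG, and the other 5 do. The hairpins of miR-6822, miR-6768, miR-6786 and miR-6743 themselves end in AG beyond the 3p arm, and that of miR-6869 does not end in AG.
miR-6822-3p: aggcucuaacuggcuuucccugCA
miR-6768-3p: caaaggccacauucuccugugcAC
miR-6869-3p: cgccgcgcgcaucggcucaGC
miR-6786-3p: ugacgccccuucugauucugcCU
miR-6743-3p: agccgcucuucucccugcccaCA
miR-6729-3p: ucaucccccucgcccucucAG
miR-6727-3p: uccugccaccuccuccgcAG
miR-6784-3p: ucucaccccaacucugccccAG
miR-6808-3p: gugugaccaccguuccugcAG
miR-6826-3p: cuccccucucuuuccuguucAG

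The label mirtron-type was checked against these sequences. Of the 131 hairpins, 125 (95.4%) ended in AG, against 16.8% of all 1562 human hairpins in the same table, and in 95 of them the 3p arm ran to the last base. Of the 6 other hairpins, those of miR-6869 and miR-6858 gave 5p arms detected on all 6 arrays, and that of miR-6840 gave one detected on 1 array. Only 16 hairpins (12.2%) began with GU, the first bases of an intron, against 8.32% of all human hairpins, and in 119 the 5p arm began after 5 leading bases. The hairpins were 56 to 164 bases long, with a median of 66. All 131 lay within the bounds of another gene in the annotation. For 113 that gene was on the same strand, of which 112 were protein-coding, and for the other 18 the gene's strand was not given. Whether a hairpin fills its intron cannot be read from gene bounds alone. The share within genes was not counted over all human hairpins, so that it is not known whether the host genes set these hairpins apart. The label thus rests here on the AG end. The 5′ end cannot decide it, although only 12.2% of the hairpins begin with GU. With 5 leading bases in 119 of them, the listed start need not be the start of the intron. Of the 6 hairpins without AG, those of miR-6869, miR-6858, miR-6790 and miR-6792 begin with GU, at the first base of the 5p arm. Those of miR-6840 and miR-6852 do not begin with GU.

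The base composition set the 2 arms apart. The median 5p arm had 50% G and 14.3% C, whereas the median 3p arm had 14.3% G and 45.5% C. A run of 4 G bases (GGGG, read on the mature strand) occurred in 47.5% of the 5p arms, in 0.690% of the 3p arms and in 11.7% of the 2370 human mature miRNAs of the table. GGG within the seed was found in 65.5% of the 5p arms, against 15.6% of all mature miRNAs. The similarity of the seeds did not make a family: the 139 sequences held 130 distinct seeds, and 8 seeds were shared by 17 arms.

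A probe was called detected on an array when its brightness, the median over the pixels of a spot on the scanner's linear scale, exceeded the mean of that array's 229 blank spots by more than 2 SD. The detection threshold lay between 33.1 and 68.4 for control cells and between 50.5 and 97.6 with TGF-β. Chip 1 carried the 3 control arrays together with TGF-β array 1, and chip 2 the remaining TGF-β arrays, so chip and treatment overlap in part. No 5p arm had a spot that the scanner flagged as failed. Of the 5 miRNAs of the miR-200 family, which is typical of epithelial cells, 5 of 5 were detected on the 3 control arrays, and 4 of 5 on all 6 arrays. The hepatocyte miRNA miR-122-5p, the smooth muscle and fibroblast miRNAs miR-143-3p and miR-145-5p, the muscle miRNA miR-133a-3p and the neuronal miRNA miR-124-3p were not detected on any array, and of 3 blood miRNAs only miR-223-3p was detected, on 1 array (TGF-β array 3).

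The 5p arms were detected more often than the rest of the array. In control replicates 1, 2 and 3, 56, 43 and 50 of the 163 5p arms were detected, and in TGF-β replicates 1, 2 and 3 there were 43, 53 and 40. These are 34.4%, 26.4% and 30.7% for the controls and 26.4%, 32.5% and 24.5% for TGF-β. The share of detected 5p arms was above that of the other miRNAs, 12.5% to 17.7%, on 6 of 6 arrays. The 3p arms of the same numbers lay below both, at 2.44% to 8.54%. The detected share of the 5p arms was 30.5% ± 3.99 (SD, n = 3) in the control group and 27.8% ± 4.18 (SD, n = 3) with TGF-β. This difference is smaller than the SD within either group (exact permutation test, 2-sided, p = 0.60, with a lowest possible p of 0.10). The groups overlapped, and TGF-β array 2 had a higher share than control arrays 2 and 3.

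**Figure D1:**
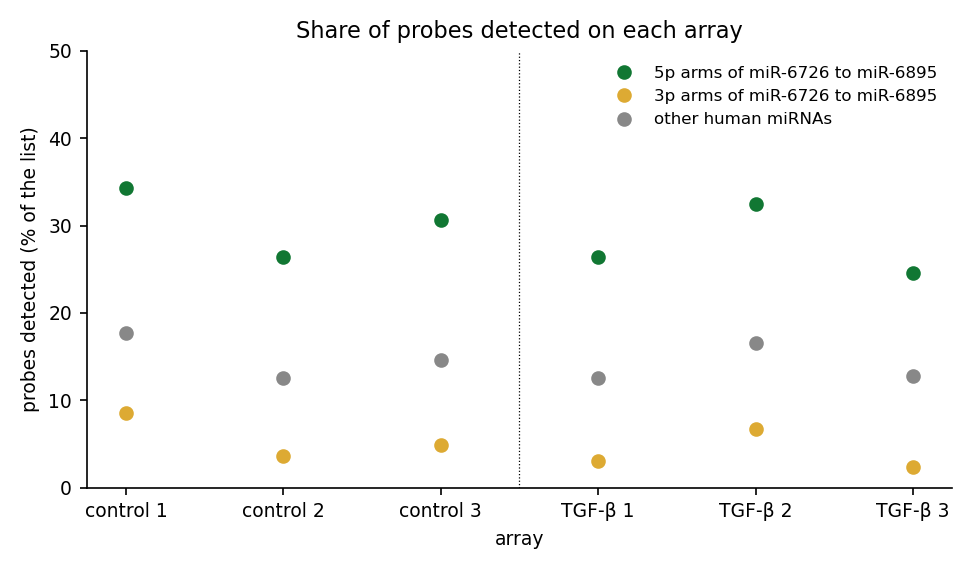
The share of probes detected on each of the 6 arrays (y axis, percent of the list) is plotted for the 163 5p arms, the 164 3p arms and the 2228 other human miRNAs, with 1 point per list and array and control arrays left of the dotted line. On each array the 5p arms (24.5% to 34.4%) lie above the other miRNAs (12.5% to 17.7%) and the 3p arms (2.44% to 8.54%) below them.

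Detection of a given 5p arm mostly held across arrays. Of the 163 arms, 36 were detected on all 6 arrays, 22 on 1 to 5 arrays and 105 on none. The median 5p arm was thus not detected, and its brightness (30.1, 50.2 and 27.3 in control cells, 70.7, 72.2 and 38.8 with TGF-β) lay below the blank mean of each array. Between the groups, 15 arms were detected on more control than TGF-β arrays, 4 on more TGF-β than control arrays, and 39 on as many of each. These counts were not made over all human probes. The arrays differed in the human probes detected, with 464, 329 and 384 in control replicates 1, 2 and 3. With TGF-β there were 327, 434 and 330. No arm was detected on all 3 arrays of 1 group and on none of the other. Of the 3p arms, 3 were detected on all 6 arrays, 11 on 1 to 5 and 150 on none.

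Some of the 22 arms detected on only some arrays lay close to the threshold. By mean distance from the blank mean over the 6 arrays, the 3 arms just above 2 SD were miR-6778-5p (2.49 SD), miR-6800-5p (2.75 SD) and miR-6799-5p (2.92 SD), each detected on 3 arrays. The 3 just below were miR-6830-5p (1.69 SD, detected on 3 arrays), miR-6880-5p (1.67 SD, on 2 arrays) and miR-6842-5p (1.61 SD, on 1 array). Arms on either side of the threshold thus differed by little, whereas the 10 brightest lay 25.3 SD to 309 SD above the blank mean.

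Detection was also counted by hairpin. For 163 numbers both arms had a probe. The 5p arm was detected on at least 1 array and the 3p arm on none for 50 of them, the reverse held for 6, both arms were detected for 8 and neither for 99. The 5p arm was detected on more arrays than its 3p arm for 54 numbers and on fewer for 7. Probes for different sequences can bind with different strength, so that the brightness of the arms was not compared. The same limit holds for these counts, since a probe is called detected by its brightness.

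Detection went with the base composition of the arm. The 29 5p arms with a known sequence that were detected on all 6 arrays had a median G and C content of 72.7%, the 21 detected on 1 to 5 arrays 68.2%, and the 89 not detected 59.1%. Among arms with at least 70% G and C, 16 of 29 (55.2%) were detected on all 6 arrays. From 60% to under 70% it was 10 of 54 (18.5%), from 50% to under 60% 2 of 45 (4.44%), and under 50% 1 of 11 (9.09%), miR-6826-5p. The 2 arms at 50% to under 60% were miR-6757-5p and miR-6868-5p. The other miRNAs likewise had the highest share at the top, with 38.6% (68 of 176) at 70% or more, 11.3% at 60% to under 70%, 9.98% at 50% to under 60% and 6.67% below. The 3p arms had 8.70% (2 of 23) at 70% or more and 0 of 54 at 60% to under 70%. Across the 139 5p arms, which share arrays and base composition, the distance above the blank mean had a Spearman's rho of 0.74 and a Pearson's r of 0.23 with G and C content. The same rho was 0.53 over the 3p arms with a sequence and 0.46 over 1951 other miRNAs. Within the 5p arms rho was 0.48 with the share of G and 0.32 with the share of C, and within the 3p arms it was -0.04 with G and 0.53 with C. Whether base composition has a part in the detected share of the 5p arms beyond this was not tested.

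**Figure D2:**
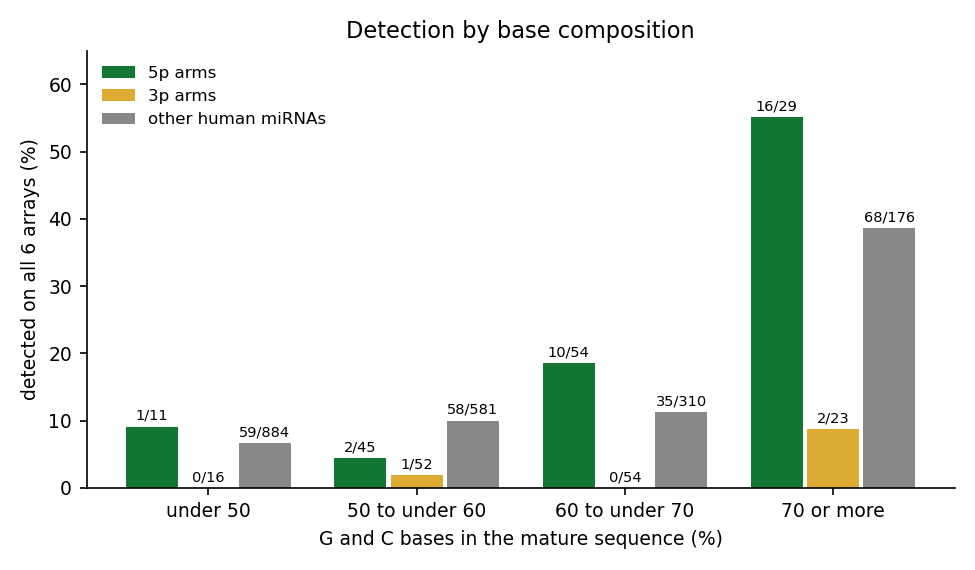
The share of miRNAs detected on all 6 arrays (y axis, percent, with counts over the bars) is plotted against the G and C content of the mature sequence in 4 bands for 5p arms, 3p arms and other miRNAs with a known sequence. At 70% or more, 55.2% of the 5p arms and 38.6% of the other miRNAs were detected on all 6 arrays, against 8.70% of the 3p arms.

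Arms near both ends of this range are shown. The 5p arms miR-6733-5p, with 40.9% G and C, and miR-6739-5p, with 36.4%, carry the same seed and were not detected on any array, with mean brightness 2.47 SD and 3.20 SD below the blank mean.
miR-6733-5p: uGGGAAAGacaaacucagaguu
miR-6739-5p: uGGGAAAGagaaagaacaagua
In contrast, miR-6786-5p, with 85.7% G and C, was detected on all 6 arrays at a mean of 65.7 SD above the blank mean. The composition did not decide every case. The arm with the highest G and C content, miR-6789-5p (87.5%), was detected on 3 arrays, at a mean of 1.28 SD above the blank mean, and miR-6787-5p and miR-6746-5p, both with 72.7% G and C, were not detected on any array.

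For levels, the blank mean was subtracted, arrays were scaled to a median of 25 over the 292 human probes detected on every array, and undetected signals were raised to the lowest detected one of the same array. The result is called the normalized signal. It has no unit and compares arrays for 1 probe, not probes with each other. An order of arms by signal is thus not an order of abundance. miR-6822-5p, encoded at chr3:39138211-39138230 (plus strand) within TTC21A, was the 5p arm farthest above the blank spots. Its normalized signal was 399.8, 376.2 and 474.4 in control cells and 470.04, 343.8 and 388.5 with TGF-β. The groups overlapped, and the ratio of the TGF-β mean to the control mean was 0.962 (log2 change -0.06, SE 0.20).

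Of the 9 other arms among the 10 with the highest normalized signals, all were detected on all 6 arrays and all groups overlapped. miR-6768-5p, in TEDC2 at chr16:2463972-2463994 (plus strand), measured 107, 95.6 and 112 in control cells and 109, 103 and 80.2 with TGF-β. miR-6869-5p, in FKBP1A at chr20:1392940-1392961 (minus strand), the gene of the protein that binds the drug FK506, measured 89.8, 107 and 94.2 in control cells and 109, 94.6 and 90.5 with TGF-β. miR-6786-5p, in HGS at chr17:81693809-81693829 (plus strand), a gene of endosomal sorting, measured 88.4, 84.0 and 87.7 in control cells and 100.3, 84.8 and 73.7 with TGF-β. In the last of these, the 3 control arrays lay between the lowest and the highest TGF-β array.

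This was also so for 3 other bright arms. miR-6729-5p, in MIIP at chr1:12029163-12029184 (plus strand), measured 65.4, 65.5 and 65.7 in control cells and 79.0, 63.5 and 54.3 with TGF-β. miR-6727-5p, in INTS11 at chr1:1312539-1312561 (minus strand), which encodes the catalytic subunit of the Integrator complex, measured 63.9, 65.5 and 66.8 in control cells and 71.8, 65.6 and 55.5 with TGF-β. miR-6784-5p, in the phospholipase C gene PLCD3 at chr17:45114409-45114428 (minus strand), measured 54.3, 51.9 and 56.2 in control cells and 59.5, 54.8 and 40.1 with TGF-β. In each of these arms TGF-β array 1 was the highest array and TGF-β array 3 the lowest, with the control arrays close together between them.

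The last 3 of the 10 varied more among the controls. miR-6743-5p, within the bounds of RIC8A at chr11:209341-209362 (plus strand), measured 56.6, 58.9 and 95.3 in control cells and 79.3, 71.6 and 73.4 with TGF-β. miR-6805-5p, in the ribosomal protein gene RPL28 at chr19:55388186-55388207 (plus strand), measured 38.9, 36.0 and 29.5 in control cells and 41.3, 38.6 and 27.8 with TGF-β. miR-6798-5p, in RUVBL2 at chr19:49009911-49009933 (plus strand), the gene of a DNA helicase-like ATPase, measured 28.0, 37.1 and 30.8 in control cells and 51.9, 32.7 and 28.7 with TGF-β. The median log2 change of the 10 arms was -0.02, and 6 of the 10 lay below 0. The direction turned with the processing. With chip as a fixed block the median was 0.20, with 0 of 10 below 0, and within chip 1 it was 0.12, with 1 of 10. Both of these set TGF-β array 1 alone against the controls, since chip 2 holds no control array. The median was -0.28 with the authors' normalized values and -0.23 on the probes each array detected itself, with 10 of 10 below 0 in both. In the main values, for each of these 10 arms the larger SD of the 2 groups exceeded the difference between the group means.

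**Figure D3:**
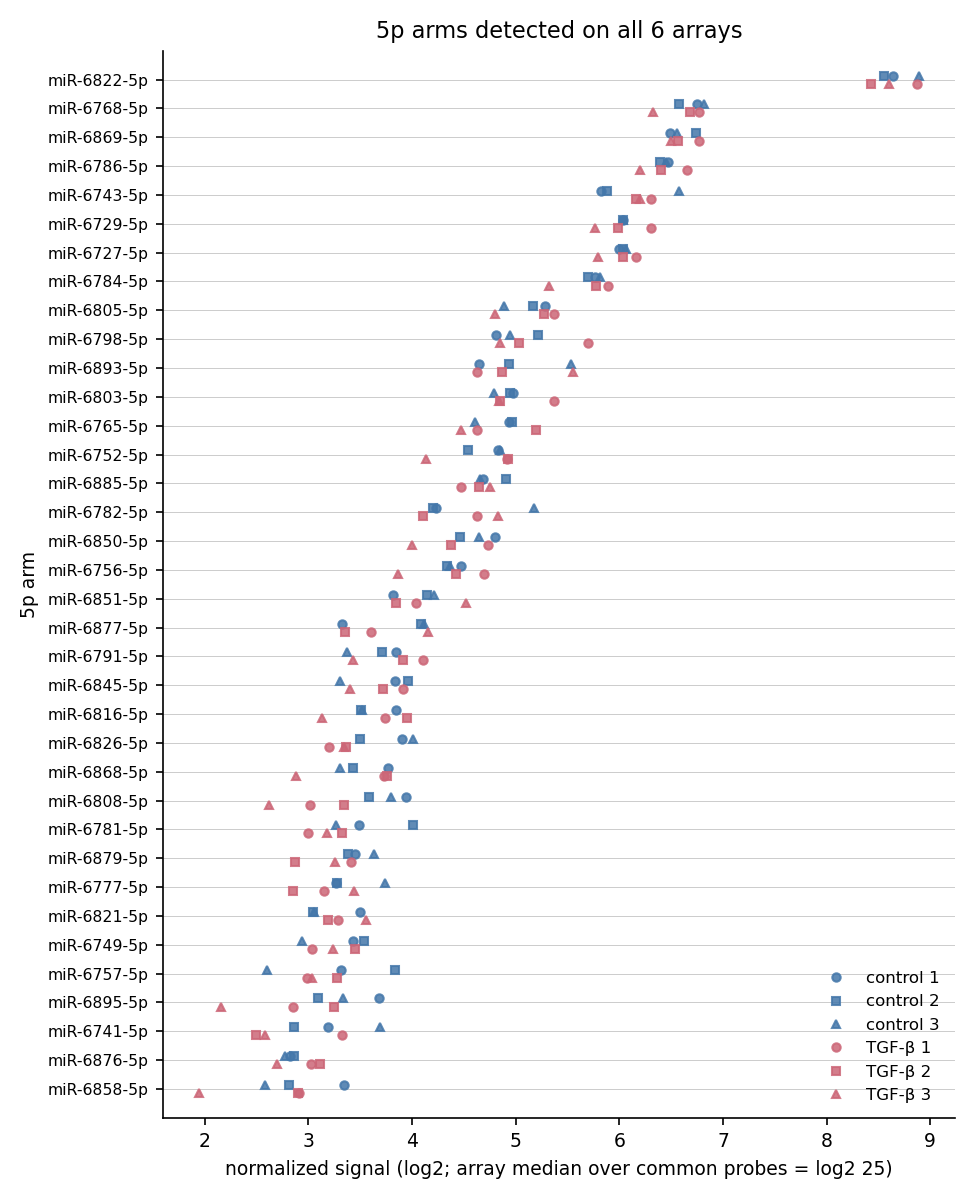
The normalized signal (x axis, log2) is plotted for each of the 36 5p arms detected on all 6 arrays (y axis, ordered by mean), with control arrays in blue, TGF-β arrays in red and a symbol for the replicate number. Blue and red points overlap for 34 of the 36 arms, and for miR-6808-5p and miR-6826-5p the 3 red points lie left of the 3 blue points.

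Each of the 323 human miRNAs detected throughout 1 group or both (3 of 3 arrays), called expressed, entered the comparison of TGF-β with control cells in limma, with Benjamini-Hochberg adjustment over all of them. They included 43 5p arms. The other 7 beside the 36 detected on all 6 arrays were miR-6802-5p, miR-6731-5p, miR-6861-5p, miR-6819-5p, miR-6771-5p, miR-6894-5p and miR-6775-5p, each detected on 4 or 5 arrays. No 5p arm passed an adjusted p of 0.05 (0 of 43, smallest adjusted p = 0.44), and no other expressed miRNA did (0%, 0 of 323). The unadjusted p was under 0.05 for 2 5p arms, both lower with TGF-β (1.86% of all expressed miRNAs were so), and for 0 higher ones (4.64% of all). On these values, the methods' t-test had 2 5p arms under 0.05 and 0 after adjustment, against 21 and 1 of all expressed miRNAs. A miss of the threshold at 3 arrays a group, with a median SE of 0.24 on the log2 scale over these arms, does not show that an arm did not change.

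By size, 0 of the 43 5p arms had a ratio of means above 1.5, where 15 of the 323 expressed miRNAs (4.64%) did. A ratio below 0.67 was found for 1 of 43 arms, where 9 of 323 (2.79%) had it. The TGF-β arrays all lay above the control arrays for 0 of 43 arms (7.12% of all expressed miRNAs) and all below for 2 (2.79% of all). The log2 changes of the arms ranged from -0.78 to 0.29, and those of all expressed miRNAs from -0.91 to 1.18. The counts of arms past each limit were thus small, and those on the low side were near the share of the whole array.

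The 2 arms whose groups did not overlap were both lower with TGF-β. miR-6808-5p is encoded at chr1:1339682-1339703 (minus strand) within DVL1, the gene of a Dishevelled protein of Wnt signalling. Its normalized signal was 15.4, 12 and 13.9 in control cells and 8.11, 10.1 and 6.14 with TGF-β. The ratio of means was 0.590, the log2 change -0.78 with an SE of 0.23, and the limma adjusted p 0.44. Each TGF-β array lay below each control array, the condition by which the arm was chosen. Within chip 1, where the lone TGF-β array was assumed to vary like the controls, the log2 change was -0.83. With chip as a fixed block, which rests on the same TGF-β array, it was -0.76.

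miR-6826-5p is encoded at chr3:129272151-129272173 (plus strand) within COPG1, the gene of a coat subunit of vesicles that move from the Golgi to the endoplasmic reticulum. Its normalized signal was 14.9, 11.3 and 16.1 in control cells and 9.21, 10.3 and 10.1 with TGF-β. The ratio of means was 0.698, above the limit of 0.67, the log2 change -0.50 with an SE of 0.20, and the limma adjusted p 0.69. The TGF-β arrays lay close together and below the control arrays, of which control array 2 came nearest. Within chip 1 the log2 change was -0.67, and with chip as a fixed block -0.60, both from TGF-β array 1 alone of the treated arrays.

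Both arms were dim, with mean signals of 8.85 SD and 9.53 SD above the blank mean. With normexp background correction and 50 units added to every signal, which draws the log2 changes of dim probes toward 0, the log2 change was -0.06 for miR-6808-5p and -0.01 for miR-6826-5p. The parts of the correction and of the added units were not told apart. The 2 arms share an unbroken stretch of 11 bases, gaggugggacc, from base 9 of miR-6808-5p and from base 12 of miR-6826-5p, which no other of the 2370 human mature sequences of the table holds (2 of 2370, 0.0844%), while their seeds differ. Whether the probe of either arm also binds the other was not tested. Next to these, miR-6895-5p was 12.9, 8.54 and 10.1 in control cells and 7.21, 9.48 and 4.44 with TGF-β, a ratio of 0.671 with overlapping groups. It was chosen after its values were seen, as the nearest to the lower limit.

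**Figure D4:**
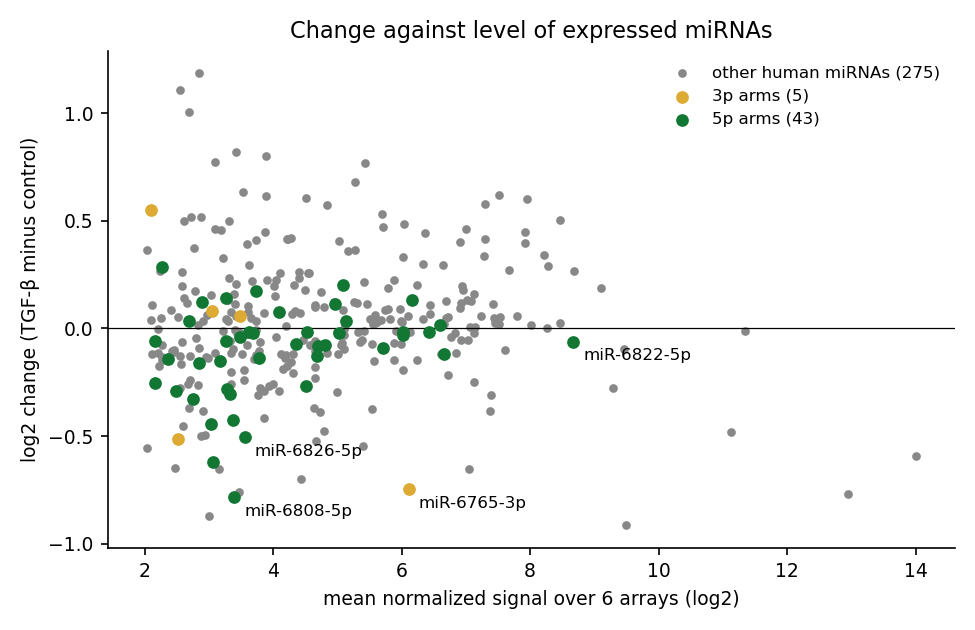
The log2 change (y axis, TGF-β minus control) of the 323 expressed miRNAs is plotted against their mean normalized signal over the 6 arrays (x axis, log2), with 5p arms in green, 3p arms in yellow and other miRNAs in grey. The 43 5p arms lie between -0.78 and 0.29, with miR-6808-5p and miR-6826-5p among the lowest of them and miR-6822-5p near 0.

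As a list, the 43 expressed arms had a median log2 change of -0.06, and 32 (74.4%) lay below 0, against a median of 0.01 and 158 of 323 (48.9%) for all expressed miRNAs. For the 36 arms detected on all 6 arrays the median was -0.06 and 27 lay below 0. The median shift is smaller than the spread between arrays: the median deviation of the 36 arms from their mean over the arrays was 0.11, -0.01 and 0.02 in control replicates 1, 2 and 3, and for TGF-β it was 0.15, -0.03 and -0.22. TGF-β array 1 was thus the highest and TGF-β array 3 the lowest of all 6. The other miRNAs detected on all 6 arrays stayed between -0.10 and 0.05. They are 253 of the 292 probes on which the arrays were scaled, so that their median deviation is held near 0 by the scaling. The 3 3p arms detected on all 6 arrays ranged from -0.24 to 0.31. Without TGF-β array 3, the median log2 change of the expressed 5p arms was -0.01 and 23 of 45 lay below 0. Within chip 1 the median was 0.03, with 19 of 46 arms below 0, and with chip as a fixed block it was 0.10, with 17 of 43 below 0. With chip as a random block it was -0.05, with 29 of 43 below 0. The sign of the list's median thus turned with a fixed block and not with a random one. Since chip 2 holds TGF-β arrays alone, the fixed-block estimate leaves them out. Like chip 1, it rests on TGF-β array 1, the highest of the 6, so that the 2 settings are not separate results. The list's median also moved with the scaling, since scaling each array on its own detected probes gave -0.28 for the arms and -0.20 for all expressed miRNAs.

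**Figure D5:**
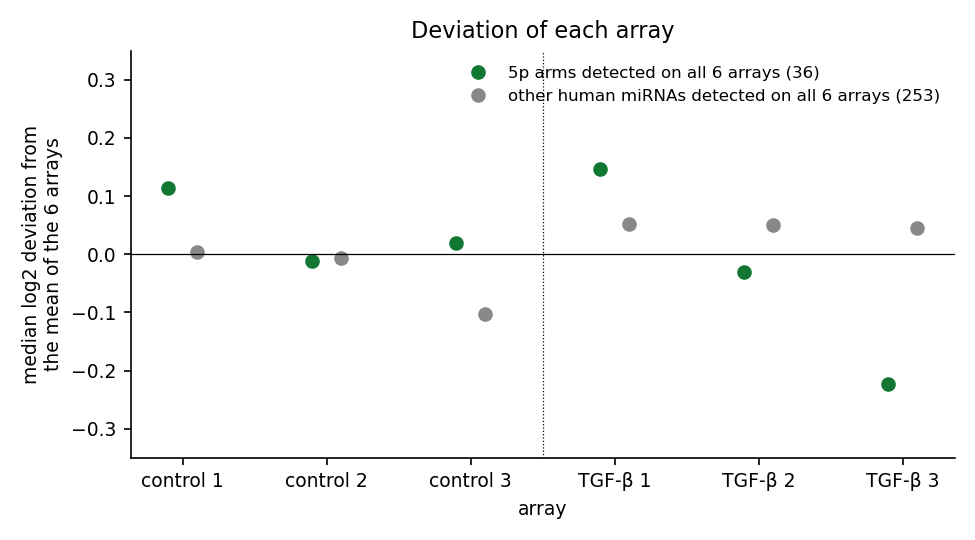
The median log2 deviation of each array from the mean of the 6 arrays (y axis) is plotted by array for the 36 5p arms and the 253 other miRNAs detected on all 6 arrays. The 5p arms range from 0.15 on TGF-β array 1 to -0.22 on TGF-β array 3, and the other miRNAs from -0.10 to 0.05. The 253 other miRNAs are most of the probes on which the arrays were scaled, which holds their median deviation near 0.

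The expressed 3p arms numbered 5. miR-6765-3p was the brightest of them and lies within JAG2, the gene of a ligand of Notch receptors, at chr14:105150778-105150798 (minus strand). Its normalized signal was 99.0, 55.1 and 130 in control cells and 50.8, 38.6 and 76.8 with TGF-β (ratio 0.584, log2 change -0.75, SE 0.37, limma adjusted p = 0.72). The groups overlapped, as TGF-β array 3 lay above control array 2. The 5p arm of the same hairpin, miR-6765-5p, measured 30.7, 31.1 and 24.4 in control cells and 24.6, 36.6 and 22.1 with TGF-β, a log2 change of -0.08 (SE 0.24). The difference in change between the 2 arms was not tested. The sequences of both arms are shown with the seed in capitals.
miR-6765-5p: gUGAGGCGgggccaggagggugugu
miR-6765-3p: uCACCUGGcuggcccgcccag

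The other 4 expressed 3p arms were dimmer. miR-6805-3p had a log2 change of 0.06 (SE 0.24) and miR-6766-3p of 0.08 (SE 0.27), and both were detected on all 6 arrays. miR-6840-3p was 7.13, 5.85 and 7.75 in control cells and 4.80, 6.0 and 3.86 with TGF-β, a log2 change of -0.51 (SE 0.23) with overlapping groups. miR-6816-3p had a log2 change of 0.55 (SE 0.32), the highest of these arms, and like miR-6840-3p was detected on 5 arrays. Neither was detected on TGF-β array 3, where both were given that array's lowest detected signal, 3.86. For miR-6816-3p, only 0.289 SD above the blank mean there, this raised value lay above the detected 2.28 of control array 3. The size and sign of its log2 change thus depend on the raised value. Of the partners of these 4 arms, miR-6805-5p and miR-6816-5p were detected on all 6 arrays, miR-6840-5p on 1 and miR-6766-5p on none. miR-6805-3p and miR-6765-3p end in AG, whereas miR-6816-3p, miR-6766-3p and miR-6840-3p do not. The hairpins of miR-6816 and miR-6766 end in AG beyond their 3p arm, and that of miR-6840 does not end in AG. The last 2 bases of these arms are in capitals.
miR-6805-3p: uugcucugcucccccgcccccAG
miR-6816-3p: gaaggaccugcaccuuCG
miR-6766-3p: ugauugucuucccccacccuCA
miR-6840-3p: gcccaggacuuugugcggggUG

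Arms that share a seed could act on the same target sites, so their detection was set side by side. Among the 36 of 43 expressed 5p arms with a sequence, none shared its seed with another expressed one, and the seeds of the other 7 were not compared. Of the 8 shared seeds, 4 had an expressed arm: miR-6822-5p (6 arrays) shared its seed with miR-6750-5p (3 arrays), miR-6777-5p (6 arrays) with miR-6889-5p (no array), miR-6803-5p (6 arrays) with miR-6751-5p (no array), and miR-6819-5p (5 arrays) with miR-6737-5p and miR-6812-5p (no array). These groups are shown with the seed in capitals.
miR-6822-5p: cAGGGAACcaguuggggcuu
miR-6750-5p: cAGGGAACagcugggugagcugcu
miR-6777-5p: aCGGGGAGucaggcaguggugga
miR-6889-5p: uCGGGGAGucugggguccggaau
miR-6803-5p: cUGGGGGUggggggcugggcgu
miR-6751-5p: uUGGGGGUgagguuggugucugg
miR-6819-5p: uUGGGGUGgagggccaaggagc
miR-6737-5p: uUGGGGUGgucggcccuggag
miR-6812-5p: aUGGGGUGagauggggaggagcagc
The hosts of the 4 expressed arms are TTC21A, SREBF1, which encodes a transcription factor of lipid synthesis, PPP6R1 and MYH9, the gene of a non-muscle myosin heavy chain. The other 4 shared seeds belong to pairs in which neither arm was detected.

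A few other probes serve as a comparison. Of 14 probes for both arms of the first mirtrons described in mammals (miR-877 and miR-1224 to miR-1229), 4 were detected on at least 1 array and 2 on all 6, and the 2 expressed ones had log2 changes of 0.07 and 0.09. Of the 9 5p arms of miR-7106 to miR-7114, also late-numbered, whose hairpins were not examined, 5 were detected on at least 1 array and 3 on all 6, and the 3 expressed ones had log2 changes from -0.70 to -0.01, with a median of -0.50 and 1 of 3 groups not overlapping.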

How the data were processed

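The authors hybridized Cy5-labelled total RNA of 6 HuCCT1 samples to 3D-Gene human miRNA chips, and deposited the scanner output with the median intensity of each spot on a linear scale, without normalization, and a second table of intensity, already normalized, whose listed miRNAs have a median of 25 per array. The rule for listing a miRNA is not given in the sources used here. The scanner output was used for all values, and the deposited table as an alternative. Groups and replicate numbers were taken from the labels. Members and lists were chosen with earlier results of these data known.

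The blank mean (229 spots) was subtracted, detection was set at 2 SD, arrays were scaled to a median of 25 over the 292 human probes detected on every array, undetected signals were raised to the lowest detected one, and values were put on the log2 scale. Control spots were not used. limma 3.58.1 in R 4.3.3 (lmFit, eBayes, no block) compared the groups over 323 expressed miRNAs, with Benjamini-Hochberg adjustment. The limma step was tested on simulated data. The number of arrays limits the precision.

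Both groups carry replicate numbers 1 to 3. Deviations from the group means correlated by 0.12, 0.24 and 0.33 between arrays of the same number (over 322 miRNAs, not independent of each other). The arrays were therefore treated as paired in 1 alternative. What a number marks is not given in the sources used here.

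Named 5p arms are the 10 with the highest normalized signal, those with no overlap between groups among arms detected on every array (at most 5 in each direction), the 3 on either side of the detection threshold, those that share a seed, and the expressed 3p arms with their 5p partners. Others named were chosen after their values were seen. Mature and hairpin sequences, positions and host genes come from RefSeq (GRCh38.p14). Runs of G were searched on the mature strand only.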

Additional observations from a re-analysis of the deposited data

How the results depend on the processing

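No 5p arm passed an adjusted p of 0.05 under any of the 21 alternatives run, the replicate block included (0 of 43, with 3 unadjusted p under 0.05). With the replicate block, the adjusted p was 0.21 for miR-6808-5p and 0.49 for miR-6826-5p, and it changed no call. Both arms stayed below 0 in all 21, from -1.04 to -0.06 and from -0.76 to -0.01. Their limma or t-test adjusted p ranged from 0.21 to 0.999 and from 0.35 to 0.999. Both had been chosen because each TGF-β array lay below each control array, and the alternatives reuse these arrays. Their sign was thus largely set by that choice and is no separate support. The number of 5p arms detected on all 6 arrays was 32 to 39 under the other settings, and the number of expressed arms 36 to 58. The number of 3p arms detected on every array was 3 to 5 when 1 array was left out, with 5 without TGF-β array 3.

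The count of 5p arms with a ratio below 0.67, which was 1, moved most: it was 8 with the authors' normalized values (43 of all 349 expressed miRNAs), 5 when each array was scaled on the probes it detected itself (27 of 323), 3 on the 75th percentile (17 of 323), 2 with quantile normalization (9 of 322), 2 with no lowest value (13 of 323), 0 with normexp and an offset of 50 (6 of 323), 4 on the arrays of chip 1 (39 of 342), and 1 to 4 when 1 array was left out. The count over all miRNAs, 9 of 323 in the main values, thus moved as well. The count of arms was 4 without control array 2 (19 of all 370 expressed miRNAs). It was 3 without control array 3 (6 of 331) or TGF-β array 1 (11 of 335). Without TGF-β array 2 (7 of 323) or 3 (33 of 339) it was 2. The count above 1.5 was 0 to 1 when 1 array was left out (miR-6778-5p, without TGF-β array 3, against 16 of 339 of all). On the arrays of chip 1, with 1 TGF-β array, the ratio of miR-6798-5p was 1.54. The median log2 change of the expressed arms, -0.06, was -0.32 with the authors' normalized values and -0.28 on the probes each array detected itself. With chip as a fixed block, which uses TGF-β array 1 alone of the treated arrays, it was 0.10 (-0.05 with a random one). It ran from -0.15 to -0.01 when 1 array was left out. The median of all expressed miRNAs moved to -0.27, -0.20 and 0.04 under the same 3 settings. The cause was not tested. Scaling on the 75th percentile of all human probes was not run, since that percentile lay below the blank mean on 5 of 6 arrays. Detection is limited by the signal over the blank spots: 105 of the 163 arms have only an upper bound in these cells.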
